A study of Mus musculus with 9 samples.

Results

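Immediate early transcription factors are switched on within minutes of a stimulus, without new protein synthesis, and most of their transcripts decay fast. The set described here holds 10 genes: Fos, Fosb, Fosl1, Jun and Junb, which encode subunits of the dimeric transcription factor AP-1; Egr1, Egr2 and Egr3, zinc-finger factors; Nr4a1, an orphan nuclear receptor; and Ier2, a short nuclear protein. They were chosen by name, with earlier results of these data known, and are 10 of 22911 genes named from a probe on the array. Probes were matched to them through the RefSeq transcript that each array probe reports. The array carried 14 probes for them. All 10 genes passed the filter on dim probes, with 12 of the 14 probes, but Fosl1 passed it only through the oldest cre lungs.

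In outline, growth factors, stretch and tissue injury act through MAP kinases on factors already bound at these genes, among them serum response factor with its ternary complex partners at CArG boxes, and CREB at cyclic AMP response elements. The proteins then switch on a later wave of genes, including secreted growth factors and the phosphatases and RNA-binding proteins that shut the response down. In lung they are known from stretch, injury and repair of the alveolar wall, and from the dissociation of tissue into cells.

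RNA from the whole lungs of 9 mice was labelled with Cy3 and hybridised to 9 one-colour Agilent arrays, 1 per lung. All 9 mice carried floxed alleles of the gene for TRF1 (TRF1flox/flox), the shelterin protein that binds telomeric repeats, and all were given tamoxifen from 8 weeks of age, in a weekly dose of 250 mg per kg. The 3 control mice had no cre, were littermates of the cre mice, and were killed aged 11 months, having had tamoxifen for 9 months. The other 6 carried SPC-cre, whose surfactant protein C promoter aims it at alveolar type 2 cells. Of these, 3 were killed aged 5 months, with 3 months of tamoxifen (3-month cre), and 3 aged 11 months, with 9 months of it (9-month cre). The groups analysed here hold no control aged 5 months, so the 3-month cre lungs differ from the controls in age and exposure as well as genotype, and the 9-month comparison is the one at equal age. The labels call the replicates biological. Since whole lung was measured, fewer cells of a type and less RNA per cell cannot be told apart.

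Each array had 59305 non-control spots, none of them saturated, and 64.4% to 73.66% of its spots were well above background. Levels below are log2 processed signal relative to the 75th percentile of the same array, and tests are limma fits over 16842 genes with Benjamini-Hochberg adjustment, a gene being called at an adjusted p under 0.05. Terf1, the targeted gene, averaged -0.07 ± 0.28 in controls (SD, n = 3), -0.63 ± 0.05 at 3 months and -0.59 ± 0.33 at 9 months of the cre mice. Its differences from control, -0.55 ± 0.19 and -0.52 ± 0.19 (SE), were not called, with limma adjusted p of 0.190 and 0.131, and where its probe lies relative to the floxed exon was not checked. Sftpc was between 7.89 and 8.60 on all arrays, and the alveolar type 2 (10), alveolar type 1 (7), airway (6) and endothelial (12) markers tested were well above background on every array. The layout touches all results. Slide 1 held all 3 controls together with replicate 1 of the 3-month cre lungs, and slide 2 held the other 5 cre lungs. By Xist signal, the controls were all male, while each cre group held 1 male and 2 females. In the comparison of 9-month cre lungs with controls 614 genes rose and 473 fell, or 554 and 651 with the authors' deposited values. With slide as a block, 0 genes were called in any comparison, and with sex as a covariate 0 were called against control.

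Before the values, the promoters of the members whose motifs are described here are shown. RefSeq starts (build GRCm38.p6) were matched for 6 of the 10 genes, and the 250 bases before each start were searched on both strands. Each line gives the last 150 bases before the start, 5′ to 3′ in the direction of transcription, with the motif in capitals.
Fos, chr12:85473740-85473889, plus strand: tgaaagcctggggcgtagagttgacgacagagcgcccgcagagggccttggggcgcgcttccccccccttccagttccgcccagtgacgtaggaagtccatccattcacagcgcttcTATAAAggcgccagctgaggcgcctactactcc
Fosb, chr7:19310046-19310195, minus strand: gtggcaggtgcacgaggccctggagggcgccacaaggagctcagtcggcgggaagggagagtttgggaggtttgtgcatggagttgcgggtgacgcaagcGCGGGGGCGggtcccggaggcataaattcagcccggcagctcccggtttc
Egr2, chr10:67537719-67537868, plus strand: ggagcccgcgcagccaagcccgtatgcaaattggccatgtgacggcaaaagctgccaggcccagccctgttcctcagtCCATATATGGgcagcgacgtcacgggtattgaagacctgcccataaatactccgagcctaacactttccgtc
Nr4a1, chr15:101266696-101266845, plus strand: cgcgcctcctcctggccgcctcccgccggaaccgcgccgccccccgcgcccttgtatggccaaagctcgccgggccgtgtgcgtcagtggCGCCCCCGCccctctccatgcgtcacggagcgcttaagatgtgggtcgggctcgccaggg

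In Fos the capitals mark a TATA box (TATAAA), 33 to 28 bases before the start, a motif found in 14.33% of 27025 genes. Egr2 had several starts, of which 1 is shown, with a CArG box, CCATATATGG, 72 to 63 bases before it. A different CArG box, CCTTTTTTGG, lay 72 to 63 bases before another Egr2 start, and a further start held none of the motifs. Egr2 was the 1 member of 6 matched with a CArG box, which 1.62% of all genes held. A site with the letters bound by EGR proteins (GCGNGGGCG) lay 50 to 42 bases before the Fosb start and, on the opposite strand as CGCCCCCGC, 60 to 52 bases before the Nr4a1 start. It occurred in 2 of the 6 members and in 5.33% of all genes. No member matched held TGACGTCA (1.77% of genes), the AP-1 site TGANTCA (7.82%) or the Nr4a1 site AAAGGTCA (1.55%) in this window. The motifs marked did not overlap one another. They are matches of letters, and binding was not measured. Sites more than 250 bases before the start, or differing from a motif by a letter, were not searched.

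Set against controls of the same age, the 9-month cre lungs had a higher mean for all 10 genes, but a single one, Fosl1, was called. That is 1 of 10, where 3.65% of all genes were called higher, and 0 of 10 fell, where 2.81% did. Fosl1 passed the filter on dim probes only through the 9-month cre lungs, so this count is given with that reservation. With no filter, or with signal required on all arrays, 0 members were called. Among the 10, 4 had an unadjusted limma p under 0.05 in the higher direction (14.8% of all genes), and 3 had groups that did not overlap (17.5% of all genes). Both counts include Fosl1. The median log2 difference was 0.85, against 0.02 over all genes. It was 0.72 when the Fosl1 control readings were raised to the lowest signal well above background of each array. With slide as a block, which separates these 2 groups completely, 7 of the 10 differences were positive and their median was 0.10; with the authors' deposited values the median was 0.56. A positive difference was shared by 52.8% of all genes. The members shared arrays and moved together across them, so their common sign is not 10 separate results.

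**Figure D1:**
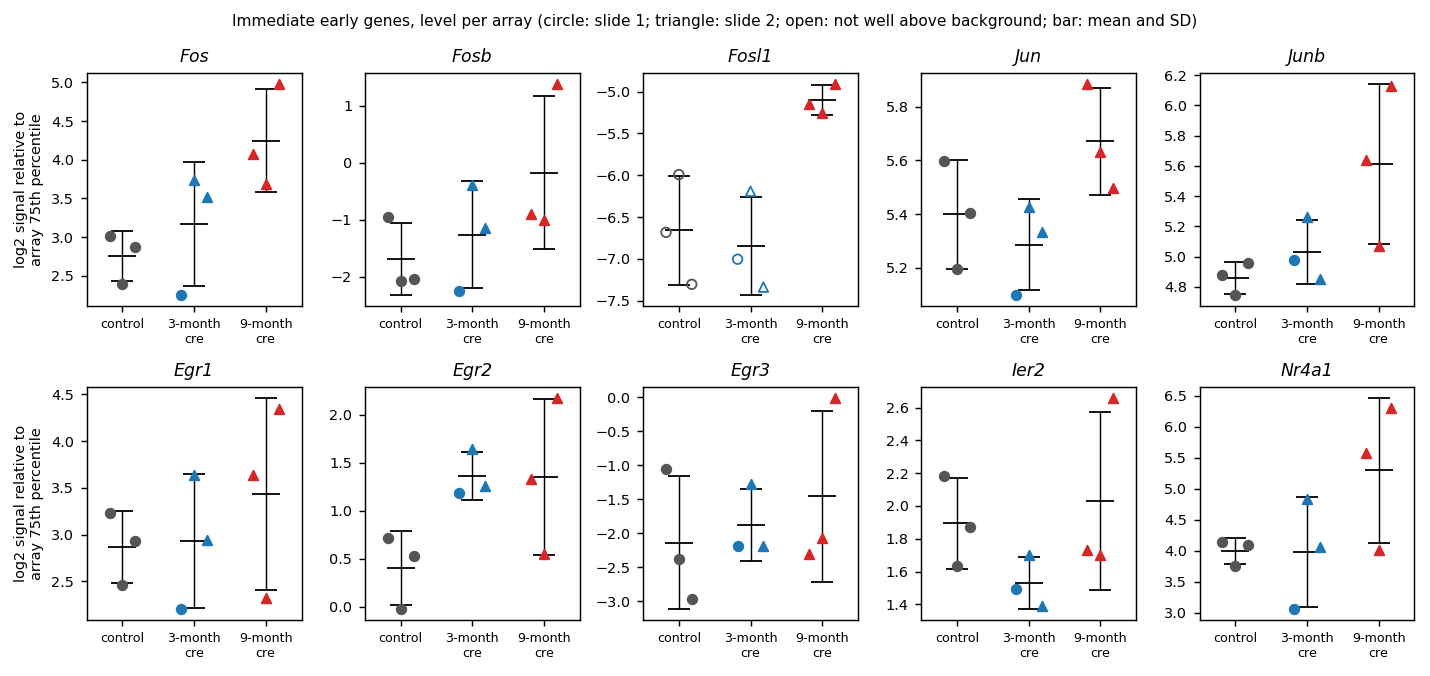
Level of each of the 10 genes on each array (log2 signal relative to the array's 75th percentile, vertical axis) in controls, 3-month cre and 9-month cre lungs, 3 per group. Circles are slide 1 and triangles slide 2, open symbols are not well above background, and bars are the mean and SD. For 9 of 10 genes the highest point is 9-month cre replicate 3.

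Fos encodes the AP-1 subunit most often used as a marker of recent stimulation. Its level was 3.01, 2.39 and 2.88 in control replicates 1 to 3, 2.25, 3.73 and 3.51 in the 3-month cre lungs, and 4.08, 3.69 and 4.98 in the 9-month cre lungs. Every 9-month cre lung lay above every control, while the 3-month cre lungs held both the lowest value of all and 2 values above the controls. The 9-month cre mean was 1.49 ± 0.44 above control on the log2 scale (SE, 95% interval 0.48 to 2.50, or 2.81-fold), with a limma adjusted p of 0.079, and was not called. Against the 3-month cre lungs, the difference was 1.08 ± 0.44 (limma adjusted p = 0.153). With slide as a block, Fos differed from control by 0.12 ± 0.60 at 9 months and by -0.51 at 3 months. The second of these is the value within slide 1, where 3-month cre replicate 1 stands against the 3 controls. Within slide 2, the 9-month cre lungs exceeded the other 2 3-month cre lungs by 0.62 ± 0.37.

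Fosb, a close relative of Fos whose stable splice form builds up with repeated stimulation in neurons, spread more widely. The kept probe gave -0.96, -2.07 and -2.04 in controls, -2.26, -0.39 and -1.15 in the 3-month cre group, and -0.90, -0.998 and 1.38 in 9-month cre lungs. The first and second of the 9-month values lie close to control replicate 1, and replicate 3 stands far above every other array. The mean difference at 9 months was 1.52 ± 0.71 (limma adjusted p = 0.206). It was 0.74 on leaving out replicate 3 of the 9-month cre lungs and 0.03 with slide as a block. A further Fosb probe was well above background only in replicates 2 and 3 of the 9-month cre lungs, and was left out by the filter.

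Fosl1 encodes Fra-1, the AP-1 subunit that is low in resting tissue and is known from wound repair and lung injury. Its probe was well above background in all 3 of the 9-month cre lungs, at -5.15, -5.26 and -4.91, and on none of the other 6 arrays. There it read -6.68, -5.99 and -7.30 in controls and -7.00, -6.19 and -7.34 in the 3-month cre group, and the groups did not overlap. The lowest signal well above background differed among arrays. It was -5.09, -5.39 and -5.59 in controls and -5.80, -6.38 and -5.85 in 9-month cre lungs. Fosl1 in 9-month cre replicates 1 and 2 thus read below the limit of control replicate 1. Since Fosl1 entered the test through the group in which it is high, its call is given with that reservation. On the measured means, -5.10 against -6.66, Fosl1 rose by a log2 value of 1.56 ± 0.37 over control (limma adjusted p = 0.045). With the control readings raised to the lowest signal well above background of each array, the means differed by 1.19-fold. This value makes no allowance for the spread between lungs, so it is not a firm minimum. Against the 3-month cre mean of -6.84 Fosl1 was 1.74 ± 0.37 higher on the log2 scale (limma adjusted p = 0.042). With those readings raised in the same way, the means differed by 1.52-fold. Both calls were close to the threshold. The first was lost on leaving out any 1 array other than 3-month cre replicate 2, the second on leaving out any 1 array other than control replicate 3. Over 19 alternatives the adjusted p of the first ran from 0.039 to 0.985 in limma. On the authors' deposited values the difference from control was 0.46, and under normexp background correction with offset 50 it was 0.35.

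Jun encodes the subunit that pairs with every Fos protein and also forms homodimers. It had the narrowest range over the 9 arrays, at 5.60, 5.19 and 5.41 in controls, 5.10, 5.43 and 5.33 in the 3-month cre group, and 5.89, 5.63 and 5.50 in 9-month cre lungs. The 9-month cre lungs overlapped the controls and lay above all 3 of the 3-month cre lungs. The difference from control was 0.27 ± 0.16 (95% interval -0.09 to 0.63, limma adjusted p = 0.287), and that from the 3-month cre lungs was 0.38 ± 0.16 (limma adjusted p = 0.149). With slide as a block the first became -0.01 ± 0.27. Jun was the 1 member highest in 9-month cre replicate 1.

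Junb, a subunit that often restrains Jun and is needed for cytokine programmes in T cells and macrophages, had the tightest controls. The values were 4.87, 4.74 and 4.96 in controls, 4.98, 5.26 and 4.85 in the 3-month cre group, and 5.64, 5.07 and 6.13 in 9-month cre lungs. No 9-month cre lung overlapped the controls. The difference was 0.75 ± 0.25 (95% interval 0.19 to 1.32, limma adjusted p = 0.097). A slide block gave 0.67 ± 0.47, again not called. It was 0.50 without 9-month cre replicate 3, and 1.03, called, when replicate 2 was the one left out. A dimmer Junb probe gave 0.91 ± 0.36 for the same comparison.

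**Figure D2:**
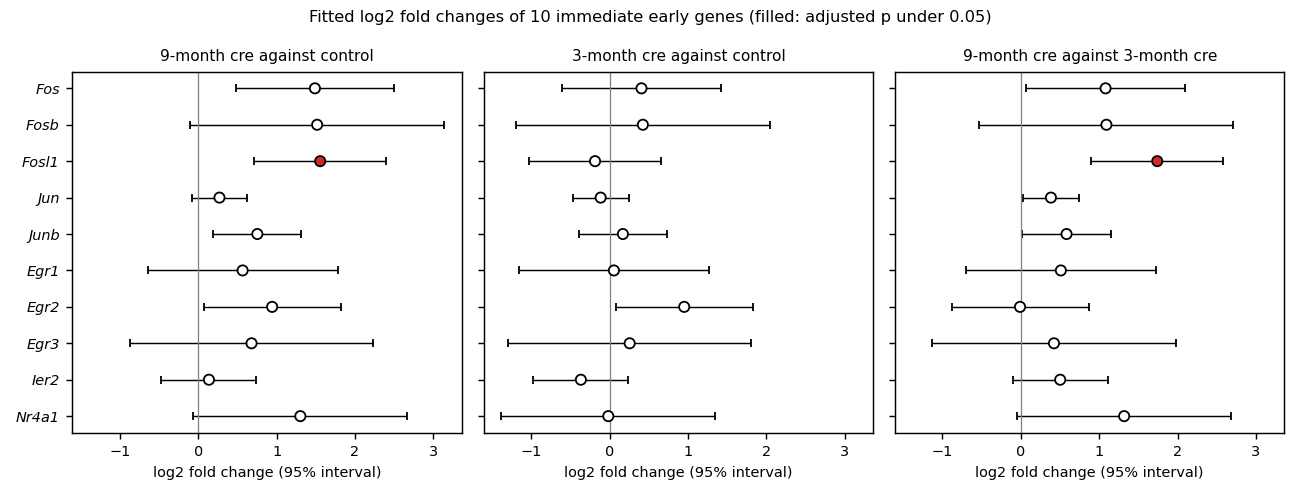
Fitted log2 fold change (horizontal axis) with its 95% interval for the 10 genes in each of the 3 comparisons, 3 arrays per group. Filled points passed an adjusted p of 0.05, which Fosl1 alone did, in the comparisons of 9-month cre lungs with controls and with 3-month cre lungs.

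Egr1 encodes a zinc-finger factor that is induced by serum, shear stress and hypoxia, and it is a known driver of matrix and coagulation genes in lung. It gave 3.23, 2.46 and 2.93 in controls, 2.20, 3.64 and 2.94 in the 3-month cre group, and 3.64, 2.33 and 4.35 in 9-month cre lungs. The groups overlapped widely, and 9-month cre replicate 2 lay below all the controls. The mean difference at 9 months was 0.57 ± 0.53 (95% interval -0.64 to 1.78, limma adjusted p = 0.509), and at 3 months 0.06 ± 0.53 (limma adjusted p = 0.968). With slide as a block these were -0.52 and -0.67.

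Egr2, which also acts in macrophages and T cells, was the member with a different course. Its level was 0.72, -0.03 and 0.53 in controls, 1.18, 1.64 and 1.25 in the 3-month cre group, and 1.32, 0.55 and 2.18 in 9-month cre lungs. Here the 3-month cre lungs all lay above the controls, while a 9-month cre lung lay within their range. Both cre groups averaged about the same, 1.36 ± 0.25 and 1.35 ± 0.82 (SD, n = 3), so that their difference was -0.01 ± 0.38 (95% interval -0.88 to 0.86). Against control, the differences were 0.95 ± 0.38 at 3 months (limma adjusted p = 0.232) and 0.94 ± 0.38 at 9 months (limma adjusted p = 0.157). These 2 comparisons share the control lungs. With slide as a block the values were 0.78 and 0.68, and within slide 1 the lung of the 3-month cre group exceeded all 3 controls. Whether the course of Egr2 differs from that of the other members was not tested.

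Egr3, a target of Egr1-like signalling that is best known in lymphocytes and muscle spindles, varied most among controls. It read -1.06, -2.38 and -2.98 in controls, -2.19, -1.27 and -2.18 in the 3-month cre group, and -2.30, -2.07 and -0.0038 in 9-month cre lungs. Its difference of 0.68 ± 0.68 at 9 months (limma adjusted p = 0.538) came to -0.05 without 9-month cre replicate 3. A second kept probe of Egr3 gave 0.40 for the same comparison, and the remaining one was not well above background on any array.

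Nr4a1 encodes Nur77, a receptor without a known ligand that is abundant in patrolling monocytes and is induced by stress and antigen. Its level was 4.14, 3.75 and 4.09 in controls, 3.06, 4.83 and 4.05 in the 3-month cre group, and 5.58, 4.02 and 6.30 in 9-month cre lungs. In 9-month cre replicates 1 and 3 it lay above all other arrays, and in replicate 2 it was within the control range. The difference from control was 1.30 ± 0.60 (95% interval -0.06 to 2.67, limma adjusted p = 0.199), and at 3 months -0.02 ± 0.60 (limma adjusted p = 0.993). It was -0.08 ± 0.97 with slide as a block, 0.80 without 9-month cre replicate 3, and 1.94, called, without replicate 2. Within slide 2 the 9-month cre lungs exceeded the 3-month cre lungs by 0.86 ± 0.60.

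Ier2, whose protein is linked to cell motility, had the smallest 9-month difference of the members. Its values were 2.18, 1.63 and 1.87 in controls, 1.49, 1.70 and 1.39 in the 3-month cre group, and 1.73, 1.70 and 2.66 in 9-month cre lungs. The 9-month difference of 0.14 ± 0.27 (limma adjusted p = 0.762) was -0.18 without 9-month cre replicate 3. At 3 months Ier2 had the most negative estimate of the members, -0.37 ± 0.27 (limma adjusted p = 0.482).

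In the 3-month cre lungs, 0 of the 10 members were called against control in limma, where 0.368% of all genes were called higher and 0.0831% lower. Egr2 was the 1 member with an unadjusted p under 0.05 (11.6% of all genes higher, 7.1% lower) and the 1 whose groups did not overlap (19.6%). The estimates were positive for 6 members (57.6% of all genes) with a median of 0.11, against 0.05 over all genes. Fosl1 was not well above background in either group. Under a slide block the estimates were positive only for Junb and Egr2, and the median was -0.37.

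Comparing the 2 cre ages directly, Fosl1 was again the 1 member of 10 that rose, against 1.79% of all genes called higher, and 0 fell, against 3.2%. Fosl1 passed the filter on dim probes only through the 9-month cre lungs, where it is high, so this count carries the same reservation. An unadjusted limma p under 0.05 was reached by 4 members (12.7% of all genes), and groups did not overlap for 2, Fosl1 and Jun (14.6%). The differences were positive for 9 of 10 (46.9% of all genes), with a median of 0.55, against -0.03 over all genes. The median was unchanged when the Fosl1 readings of the 3-month cre lungs were raised to the limit of each array. This comparison could be made within slide 2, with 3 lungs against 2, where the median was 0.52 and 0 genes of the whole array were called. It shares the 9-month cre lungs with the comparison against control.

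**Figure D3:**
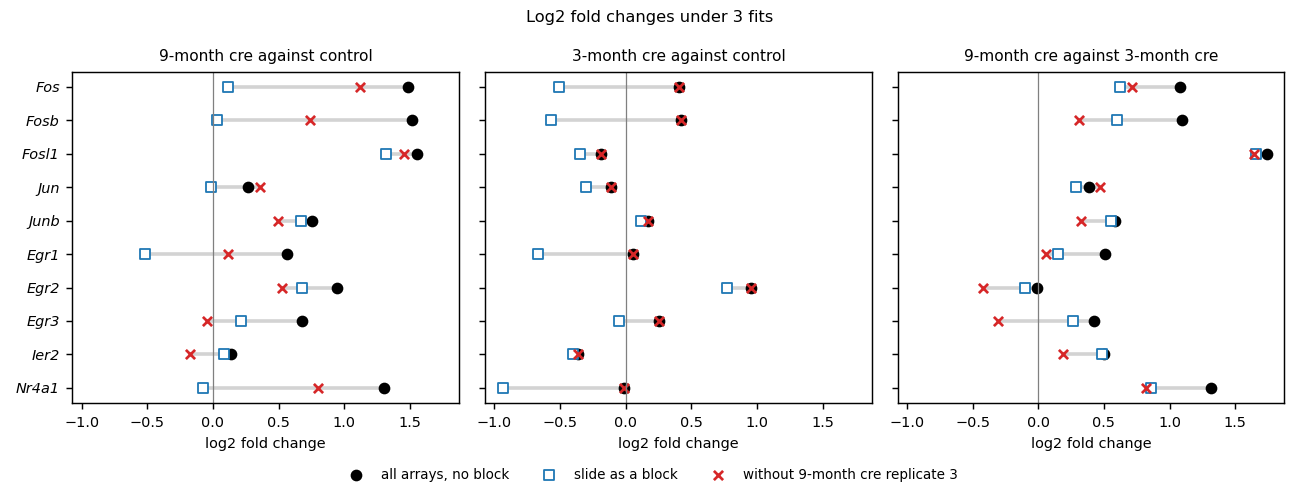
Log2 fold change (horizontal axis) of the 10 genes in each comparison from all arrays without a block, with slide as a block, and without 9-month cre replicate 3. Against control, the block brings Fos from 1.49 to 0.12 and Nr4a1 from 1.30 to -0.08, while Junb goes from 0.75 to 0.67. These blocked values cross the slides through 3-month cre replicate 1, the only cre lung on slide 1.

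The members also differed among arrays of 1 group. Of the 9 arrays, 9-month cre replicate 3 had the highest level for 9 of the 10 genes, and it was the highest array for 17% of all genes. The lowest level fell in 3-month cre replicate 1 for 5 members, which was the 1 cre lung on slide 1, in control replicate 2 and 3-month cre replicate 3 for 2 each, and in control replicate 3 for the remaining member. As the median over the members of the deviation from each gene's mean over the arrays, the controls stood at -0.10, -0.59 and -0.42, the 3-month cre lungs at -0.58, 0.37 and -0.23, and the 9-month cre lungs at 0.45, -0.11 and 1.28. Thus 9-month cre replicate 2 lay within the range of the controls and 3-month cre lungs. Leaving out 9-month cre replicate 3 brought the median difference from control to 0.51 and left 8 of 10 positive.

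**Figure D4:**
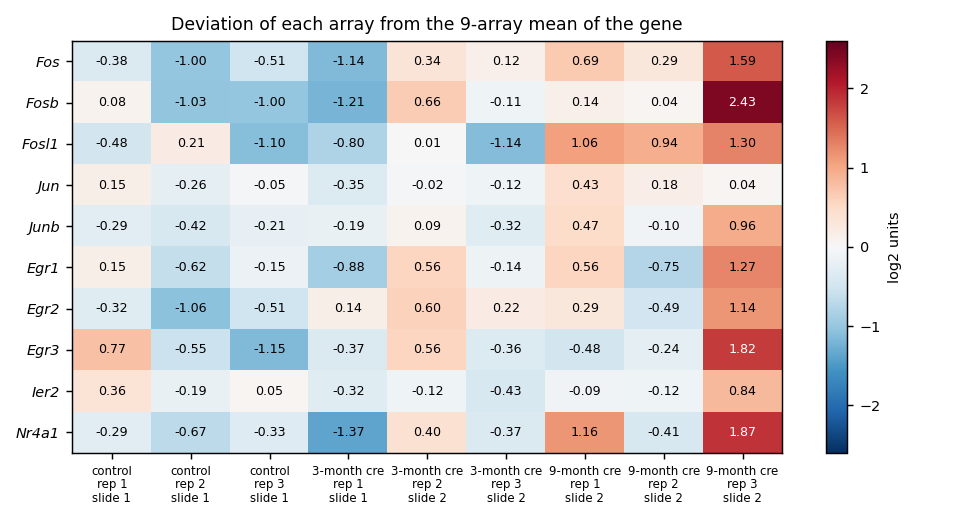
Deviation of each array (columns, with group, replicate and slide) from the mean of a gene over the 9 arrays, in log2 units (colour), for the 10 genes (rows). 9-month cre replicate 3 is high in nearly every row, and 3-month cre replicate 1 and control replicate 2 are low in most.

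Across the 9 arrays the 45 pairs of members had Pearson correlations from 0.18 to 0.93, with a median of 0.68, and 34 were above 0.5. After each group's mean was removed the median was again 0.68 and 41 of 45 were positive, so the co-variation was not only between groups. These correlations share arrays, their scaling and the slides, and are given as a description. For Fos and Egr1, Pearson r was 0.82 (two-sided exact permutation p = 0.00716) and Spearman rho 0.82 (exact permutation p = 0.0108) over 9 arrays. Without the 2 arrays farthest from the median of Fos, which were 9-month cre replicate 3 and 3-month cre replicate 1, r was 0.52 (exact permutation p = 0.23) and rho 0.61 over 7 arrays, a narrower range of Fos, so the passed test rests on those arrays. Deviations from group means gave r = 0.90. The slides hold 4 and 5 arrays, and no correlation is given over so few.

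Among the genes tested that are not members, those whose levels ran most like each member over the 9 arrays were Cuedc2 for Fos (r = 0.98), Mpg for Fosb (0.98), Ifitm5 for Fosl1 (0.98) and Capn5 for Jun (0.95). For Junb it was Bak1 (0.99), whose protein acts in apoptosis. Egr1 ran most like Washc1 (0.96) and then Ccn1 (0.94), which encodes a secreted matrix protein and is an immediate early gene itself. Egr2 was closest to Tmem192 (0.97), Egr3 to Slc6a6 (0.93), Ier2 to Tcf4 (0.96) and Nr4a1 to Fut7 (0.96). With 9 arrays and 16842 genes, high values arise for any gene, and these are descriptions.

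The rest of the pathway was read from 6 lists of known genes, also chosen with earlier results of these data known. Their counts of calls against control at 9 months stand beside 3.65% of all genes called higher and 2.81% lower. In 9-month cre lungs against control, 0 of 16 upstream kinases and factors of the serum response pathway rose or fell, with a median of 0.01; 2 had an unadjusted p under 0.05 in the higher direction and 1 in the lower. Elk1, a ternary complex factor, was 0.47 ± 0.15 higher (limma adjusted p = 0.090) and Mrtfa, an actin-regulated coactivator of serum response factor, 0.39 ± 0.12 (limma adjusted p = 0.087). Of 14 other AP-1 subunits and partners, 3 rose and 0 fell, with a median of 0.28. They included Batf, a lymphoid partner of Jun proteins, at 1.21 ± 0.21, and Fosl2, a close relative of Fosl1, at 0.58 ± 0.13 (limma adjusted p of 0.022 and 0.042).

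Other immediate early genes rose for 3 of 18 tested (3.65% of all genes) and fell for 0 (2.81%), with a median of 0.34. The group mean of Cebpb, a factor of acute-phase and macrophage genes, went from 4.53 ± 0.07 in controls to 5.38 ± 0.23 (SD, n = 3), a difference of 0.84 ± 0.13 (SE, limma adjusted p = 0.016). Myc, a driver of growth, was 0.82 ± 0.16 higher (limma adjusted p = 0.029), and Ier5 0.57 ± 0.14 (limma adjusted p = 0.049). Of the 20 feedback inhibitors tested, 5 rose and 0 fell, beside the same shares of all genes, with a median of 0.41. The largest differences among the 5 were those of Socs3, which blocks cytokine receptor signalling, at 1.37 ± 0.27, Gadd45g, a stress-response gene, at 1.13 ± 0.19, Spry4, an inhibitor of growth factor receptor signalling, at 0.99 ± 0.23, and Dusp6, the phosphatase of ERK, at 0.94 ± 0.17 (limma adjusted p of 0.028, 0.020, 0.042 and 0.025).

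Secreted and surface targets had the highest median of these 6 lists, 0.98, with 6 of 20 rising and 0 falling, where 3.65% and 2.81% of all genes did. Ereg, a ligand of the EGF receptor, was 2.25 ± 0.35 higher and Cxcl1, a neutrophil chemokine, 2.24 ± 0.54 (limma adjusted p of 0.018 and 0.048). Ereg lay near background in controls, at -5.47 ± 0.46 (SD, n = 3). The lowest signal well above background on those arrays was -5.09, -5.39 and -5.59, so the size of the Ereg difference is uncertain. Ptgs2, the inducible cyclooxygenase, was 1.03 ± 0.22 higher (limma adjusted p = 0.033). Heat shock genes, which encode chaperones, gave 0 of 11 called, 1 at an unadjusted p under 0.05, and a median of 0.09; Hspa8 stood at 0.77 ± 0.21 (limma adjusted p = 0.062) and Dnaja1 at 0.49 ± 0.22 (limma adjusted p = 0.187). The list medians kept their sign under the slide block, at 0.39 for the AP-1 partners, 0.28 for other immediate early genes, 0.35 for the inhibitors and 0.79 for the secreted targets, but none of the genes in them was called.

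These counts turned on single arrays, and so did the counts over all genes, of which 614 rose with all arrays. Over all genes, 646 rose without 9-month cre replicate 3, 91 without control replicate 2 and 148 without 9-month cre replicate 1. It was 980 without 9-month cre replicate 2 and 127 with only the 2 groups in the fit. The changes in count were thus not particular to these lists. Without 9-month cre replicate 3 the secreted targets that rose numbered 2 and the inhibitors 3, and without control replicate 2 they numbered 1 and 0. Without 9-month cre replicate 1 each of those lists, the AP-1 partners and the other immediate early genes had 1 gene called. Without 9-month cre replicate 2, the secreted targets that rose numbered 9 and the inhibitors 6, and 1 inhibitor fell. Ereg was called on leaving out each of the 9 arrays in turn. With only the 2 groups in the fit, 0 of the secreted targets were called, Ereg included.

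In the 3-month cre lungs 0 genes of these 6 lists were called in limma, and of their 99 tested genes 12 had an unadjusted p under 0.05 in the higher direction and 2 in the lower, where 11.6% and 7.1% of all genes did. The largest differences were Mmp13, a collagenase, at 1.68 ± 0.61, and Il6, a cytokine, at 1.60 ± 0.93, and the median of the secreted targets was 0.46. Myc was 0.65 ± 0.16 above control (limma adjusted p = 0.116). Between the cre ages 3 of the 99 genes rose, where 1.79% of all genes did, and 0 fell, where 3.2% did. The 3 were Cebpb, by 0.77 ± 0.13, Dusp6, by 0.87 ± 0.17, and Ereg, by 1.79 ± 0.35. Their limma adjusted p was 0.029, 0.037 and 0.037, and each was in a different list. None of the 3 was called within slide 2, or without control replicate 2, any 1 of the 3-month cre lungs or 9-month cre replicate 1. In those fits between 0 and 70 of all genes rose, against 301 with all arrays.

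**Figure D5:**
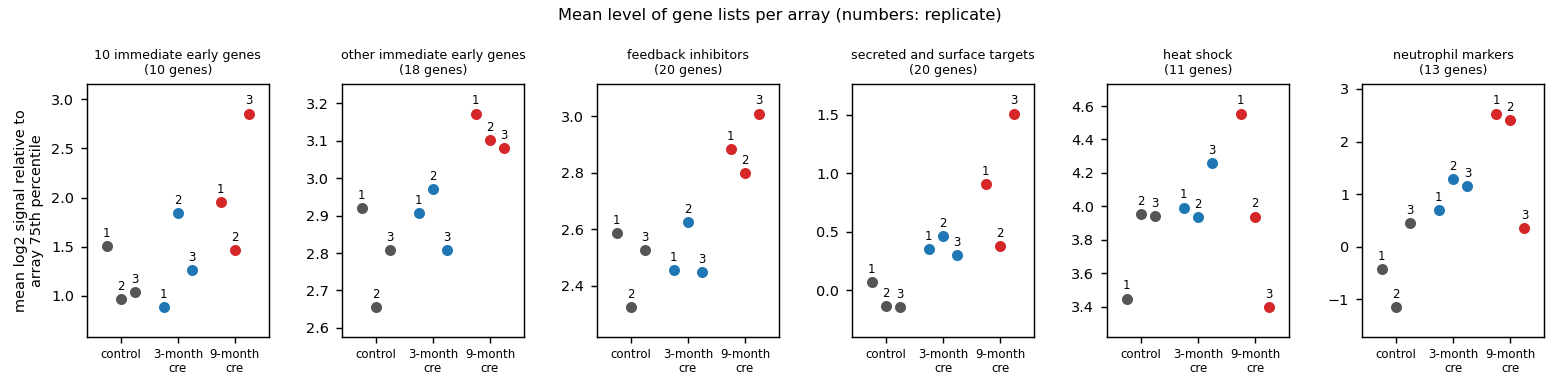
Mean log2 level (vertical axis) per array of the 10 immediate early genes and of other gene lists in the 3 groups, with numbers giving the replicate. 9-month cre replicate 3 is the highest array for the 10 genes (2.86) and the secreted targets (1.51) and the lowest of its group for heat shock genes (3.39) and neutrophil markers (0.36).

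Cell markers also differed between groups and arrays, and are read against the same 3.65% of all genes called higher and 2.81% lower. Of 13 neutrophil markers tested 3 rose in 9-month cre lungs and 0 fell, with a median of 1.82. Their summed signal, in units of each array's 75th percentile, was 106 to 208 in controls and 159 to 230 in the 3-month cre group, and in 9-month cre lungs it ran from 123, in replicate 3, to 397. So the lung highest in the immediate early genes was within the control range for neutrophil markers, and it was the highest of the 9 arrays for monocyte and macrophage markers, with a mean log2 level of 3.33 against 2.70 and 2.63 in its group and at most 2.83 in the others. By summed signal, 9-month cre replicate 2 was the highest for these, at 362 against 356 in replicate 3. Of 15 monocyte and macrophage markers 4 rose and 0 fell, and their sum was 231 to 250, 250 to 290 and 315 to 362 in the same order of groups. Heart muscle markers, 1 of 15 falling and 0 rising, summed to 78.5 to 252, 35.8 to 104 and 75.8 to 99.5. Among the other lists, 1 marker each of lymphocytes (10 tested), endothelium (12), smooth muscle and fibroblasts (12) and alveolar type 2 cells (10) fell, and 0 of 7 alveolar type 1 and 0 of 6 airway markers were called. The part of these cells, of the slide and of sex in the levels of the immediate early genes was not tested.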

How the data were processed

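Whole-lung RNA of 9 mice was measured on 9 one-colour arrays. Per the file headers, the deposited scanner files come from Agilent Feature Extraction 10.7.3.1 and hold background-subtracted signal intensity per spot, not scaled between arrays. The authors' deposited value table holds 1 intensity per probe on a linear scale, with nearly equal distributions on all arrays; the method behind it is not stated in the labels or headers, and it served as an alternative.

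Spots marked as outliers were left out, spots of a probe were averaged, and log2 intensity was set relative to each array's 75th percentile. A probe was kept when well above background on all arrays of at least 1 group, which left 37646 of 56605 probes. Probes were named through RefSeq accessions (32994 with 1 symbol, 23611 without), and the probe with the highest mean stood for a gene. limma 3.58.1 in R 4.3.3 was fitted to group means over all 9 arrays (6 residual degrees of freedom, two-sided) and tested on simulated data. The number of arrays limits the precision.

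The members and lists were chosen with earlier results of these data known. All 10 members are named, with 1 to 3 genes most like each by Pearson r. From each context list up to 4 called genes with the largest change are named, or 2 where none was called; some genes that this rule selects are not reported here. Replicate numbers did not pair lungs: the deviations of same-numbered arrays correlated at -0.24 to 0.04 (9 pairs). Alternatives covered background correction (normexp, offset 50), scaling, the filter, probe choice, the groups in the fit, slide, sex, replicate number and each array left out. No array was left out of the results given unless stated.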

Additional observations from a re-analysis of the deposited data

How the results depend on the processing

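Slide and sex limit these data: controls lie on slide 1 and 9-month cre lungs on slide 2, so genotype is read across slides only through the 3-month cre group, and all controls are male. Signal over background limits Fosl1.

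In the comparison of 9-month cre lungs with control, 1 member was called, as it was with the deposited values and the mean of all kept probes. The count was 0 with normexp, quantile normalization, scaling to the array median, no filter and a filter on all arrays (which drops Fosl1). It was also 0 with only the 2 groups in the fit, slide as a block and sex as a covariate. On leaving out an array it was 0 to 3. Dropping replicate 2 of the oldest cre lungs gave 3 calls, which included Junb and Nr4a1 but not Fosl1. Calls over all genes moved as well. With all arrays 614 genes rose, and without that lung 980 did. With only the 2 groups it was 127, and with slide as a block or sex as a covariate 0. It was 603 with normexp, 524 with quantile normalization, 440 with scaling to the array median and 280, of 22911 genes, with no filter. When the cre lung on slide 1 was dropped, 1 member was called, and it was not Fosl1. For 9-month against 3-month cre lungs the count of 1 became 0 with quantile normalization, the deposited values, no filter, the filter on all arrays, slide as a block, within 1 slide and with sex as a covariate, and was 0 to 1 on leaving out an array. Over all genes, 301 rose between the cre ages with all arrays. It was 331 with quantile normalization, 452 with the deposited values, 92 with sex as a covariate, 47 with no filter and 0 with slide as a block. The count of members called in 3-month cre lungs against control was 0 throughout. The cause of these losses was not tested, apart from the genes or arrays an alternative removes. A block for the replicate number, which does not pair the lungs, left 0 members called in each comparison and 201 genes rising and 116 falling between 9-month cre and control, against 614 and 473. Fos and Egr1 had r = 0.66 to 0.96 on leaving out an array, the lowest, without 9-month cre replicate 3, with an exact permutation p of 0.0828.

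Directions turned as follows, in log2 units. For 9-month cre against control, the slide block gave Jun -0.011, Egr1 -0.52 and Nr4a1 -0.078, and leaving out 1 array at a time gave Egr3 from -0.047 to 1.22 and Ier2 from -0.18 to 0.30, the lowest without 9-month cre replicate 3. For 3-month cre against control, the slide block, equal to the value within slide 1, gave Fos -0.51, Fosb -0.57, Egr1 -0.67 and Egr3 -0.054. There, quantile normalization gave Egr1 -0.015, the deposited values gave Fosl1 0.048, Junb -0.072 and Egr1 -0.032, and sex as a covariate gave Fosl1 0.12, Jun 0.065 and Nr4a1 0.55. In that comparison, leaving out 1 array at a time gave ranges of -0.51 to 0.15 for Fosl1, -0.014 to 0.92 for Fosb, -0.30 to 0.42 for Egr1, -0.16 to 0.80 for Egr3 and -0.44 to 0.44 for Nr4a1. Between the cre ages, Egr2 came to 0.0091 with quantile normalization and 0.028 with the deposited values, and leaving out 1 array at a time gave -0.42 to 0.39 for Egr2, -0.30 to 0.85 for Egr3, -1.41 to 0.033 for Hspa1a and -1.60 to 0.075 for Hspa1b. No reversed difference was called. The cause of these turns was not tested.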

Other observations

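Heat shock genes, which encode protein-folding chaperones, are set here beside the immediate early genes lung by lung. Whether the lists run together was not tested. Between 9-month and 3-month cre lungs, 0 of 11 were called in limma (1 at an unadjusted p under 0.05), and the largest differences were those of the inducible chaperones Hspa1b, at -0.77 ± 0.81, and Hspa1a, at -0.72 ± 0.69. Their mean log2 level per array was 3.45, 3.95 and 3.94 in controls, 3.99, 3.93 and 4.26 in the 3-month cre group, and 4.56, 3.94 and 3.39 in 9-month cre lungs. By this mean, the array highest for the immediate early genes was the lowest of all for the heat shock genes. By summed signal, control replicate 1 was the lowest, at 190 against 196 in 9-month cre replicate 3. In the same order, the mean of the feedback inhibitors was 2.59, 2.32 and 2.53, then 2.46, 2.63 and 2.45, then 2.88, 2.80 and 3.01, so that all 3 of the 9-month cre lungs lay above the other 6. The other immediate early genes, at 2.92, 2.65 and 2.81, then 2.91, 2.97 and 2.81, then 3.17, 3.1 and 3.08, showed the same separation of the 9-month cre lungs, with no excess in replicate 3.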
